A study of Mus musculus with 11 samples.

Results

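The regions described here are H3K27me3 peaks of activated satellite cells (ASCs) from young mice. They overlapped no listed H3K27me3 peak of young quiescent satellite cells (QSCs) and no listed H3K4me3 peak of either young cell state. They were chosen by the positions and scores of 4 peak lists from young mice. A peak of the ASC H3K27me3 list was kept if its score was at least 100 and if it shared no base with a QSC H3K27me3 peak, an ASC H3K4me3 peak or a QSC H3K4me3 peak. The rule found 9329 of the 38307 peaks in the ASC H3K27me3 list, or 24.4%, out of 212879 peaks in the 8 lists of the series. These are called gained peaks below. The peak names are those of the peak caller MACS. Its scale, the negative decimal logarithm of a peak's p-value multiplied by 10, was inferred from the names and from the lowest listed score of 50, and on it a score of 100 stands for a p-value of 1e-10.

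Satellite cells are the stem cells of skeletal muscle. Cells sorted from the hindlimb muscle of male C57BL/6 mice as VCAM+ and as negative for CD31, CD45 and Sca1 gave 3 groups, namely QSCs aged 2 to 3 months, ASCs aged 2 to 3 months and QSCs aged 22 to 24 months. The sample descriptions derive the ASCs from young QSCs kept in serum culture on a coated surface for 3 days, whereas the paper writes of cells from injured muscle. H3K4me3 and H3K27me3 were profiled in all 3 groups and H3K36me3 in the young groups, with 1 ChIP library for each mark and group and 1 input library for each group. Fixed cells were frozen and collected until they sufficed for a ChIP, so a library may hold cells of several animals, and no library had a replicate. Every difference between groups is therefore a difference between 2 libraries, no test between them was made, and the sequencing depth is unknown. Whether a peak is absent from QSCs or was missed at their depth cannot be told apart here. Intervals are Wilson 95% intervals over peaks unless another kind is named, and they cover counting error only, since neighbouring peaks are not independent. The peaks are placed on the mouse assembly mm9, for which no gene annotation was used, so neither the genes around the peaks nor the marker genes of satellite cells were examined.

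H3K27me3 is written by the methyltransferase Ezh2 or its relative Ezh1 within the Polycomb repressive complex 2, and it is associated with silent transcription. The complex also binds the mark it makes through its subunit Eed, by which H3K27me3 can extend from a nucleation site over neighbouring nucleosomes. H3K4me3 is found at promoters, and H3K36me3, which Setd2 adds behind elongating RNA polymerase II, covers the bodies of transcribed genes. H3K36me3 on a histone tail hinders the complex from methylating the same tail. Apart from the exclusion of overlap, the distance of the gained peaks from quiescent H3K27me3 was not used by the rule. Nor were their overlap with H3K36me3 and their presence in old QSCs.

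The gained peaks were mostly narrow. Their median width was 1136 bp (1125 to 1147 bp, distribution-free 95% interval), with a middle range from 905 to 1507 bp and extremes of 354 and 9657 bp. They covered 12.3 Mb, which is 25.2% of the length of all ASC H3K27me3 peaks. Peaks of at most 1 kb made up 36.8% of the gained peaks, and those between 1 and 2 kb a further 52.1%. A width above 3 kb was reached by 258 gained peaks, or 2.77%, and above 5 kb by 27. These are widths of peaks as listed, and 55.7% of the gained peaks had another ASC H3K27me3 peak within 1 kb. With peaks less than 1 kb apart merged before the rule was applied, the median width was 1392 bp. The 6912 ASC peaks with a score of at least 100 that overlapped QSC H3K27me3 had a median width of 1975 bp (1922 to 2022 bp). Of these, 29.5% were wider than 3 kb. The 2 kinds were not alike in score, with medians of 517.7 for the overlapping and 150.7 for the gained peaks. Gained peaks with scores of 300 to 500 had a median width of 1964.5 bp, and those of 500 to 1000 had 2637.5 bp. A wide peak is also more easily dropped by a rule that excludes any shared base. In QSCs themselves the listed H3K27me3 peaks were also mostly narrow, with a median of 1228 bp and 560 of 11658 wider than 5 kb. The 2326 peaks gained at an H3K4me3 peak, with the same minimum score, had a median of 1151.5 bp (1117 to 1176 bp), so the intervals of both kinds of gained peak overlapped. Peaks that met every condition except the score numbered 16756 and had a median width of 689 bp.

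The score, which chose the members, had a median of 151 and a middle range of 119 to 221. Across the 9329 peaks the score and the width had a Spearman correlation of 0.66, given as a description because both were called from the same reads. Just inside the limit lay peaks with a score of 100 at chr1:134802699-134803570, chr6:54168982-54169936 and chr8:10429430-10430174, with widths of 872, 955 and 745 bp. Just outside it lay peaks with scores of 99.99, 99.99 and 99.96, at chr2:158411627-158412469, chr8:124266472-124267526 and chr7:108725858-108726896, with widths of 843, 1055 and 1039 bp. The widths of these 3 peaks on either side of the limit overlapped.

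**Figure D1:**
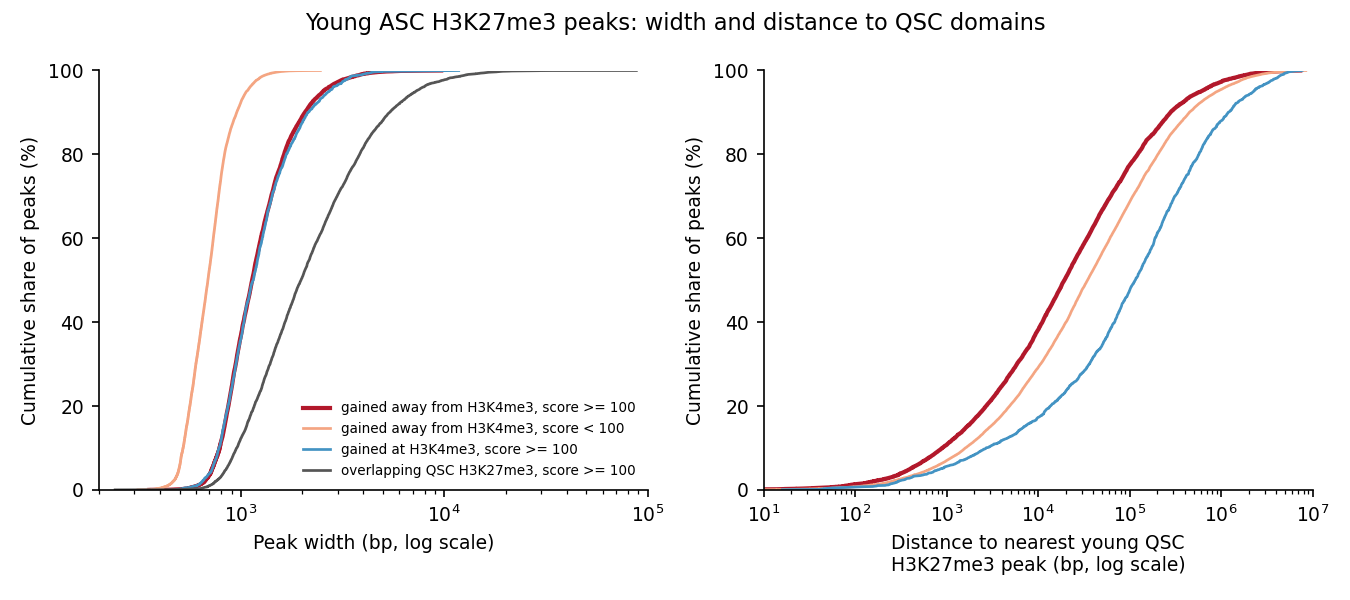
Cumulative share of peaks (%) by peak width in bp (left) and by distance in bp to the nearest H3K27me3 peak of young QSCs (right), both on log axes, for 4 kinds of young ASC H3K27me3 peak (3 kinds on the right, where overlapping peaks have no distance). The gained peaks away from H3K4me3 (thick red) nearly coincide in width with those gained at H3K4me3 (medians of 1136 and 1151.5 bp) and lie nearer to QSC H3K27me3 (medians of 19.4 and 115.5 kb).

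The gained peaks lay near quiescent H3K27me3 more often than peaks gained at H3K4me3, but most were beyond its immediate edge. The median distance to the nearest young QSC H3K27me3 peak was 19.4 kb (18.25 to 20.52 kb, distribution-free 95% interval), with a middle range of 4.09 to 86.0 kb. Within 1 kb of a QSC peak lay 1001 gained peaks, or 10.7% (10.1% to 11.4%), and within 10 kb lay 3558, or 38.1% (37.2% to 39.1%). Of all 29668 ASC H3K27me3 peaks that overlapped no QSC peak, 30.5% lay within 10 kb of one. The share was 29.2% (28.5% to 29.9%) for the gained peaks with lower scores and 17.3% (15.8% to 18.9%) for the peaks gained at H3K4me3. At the far end, 254 gained peaks, or 2.72%, were more than 1 Mb from any QSC peak, and the largest distance was 7.34 Mb. When peaks with any QSC H3K27me3 or young H3K4me3 peak within 5 kb were left out as well, 5712 gained peaks remained. Of these, 14.2% were within 10 kb of QSC H3K27me3, a share that is lower by design because it counts only distances from 5 to 10 kb. The QSC peaks that were nearest to a gained peak and within 10 kb of it numbered 2387, and their median width of 1196 bp was close to the 1228 bp of the whole QSC list. Of these 2387, 85.4% overlapped an ASC peak, against 74.3% of the whole QSC list.

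Distances to H3K4me3 were of the same order. The nearest H3K4me3 peak of either young cell state was a median of 15.8 kb away (15.3 to 16.3 kb), and 38.0% (37.0% to 39.0%) of the gained peaks had one within 10 kb. One within 1 kb was listed for 498, or 5.34% (4.90% to 5.81%), beside 4.13% of the gained peaks with scores under 100. Because the rule took out every peak that overlapped young H3K4me3, these values describe only the distance beyond an overlap.

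Other H3K27me3 peaks of ASCs were much closer than either. The nearest one was a median of 0.761 kb away (0.728 to 0.795 kb), within 1 kb for 55.7% (54.7% to 56.7%) of the gained peaks and within 10 kb for 85.7% (84.9% to 86.4%). For the gained peaks with scores under 100, the median was 2.30 kb, and for those at H3K4me3 it was 12.15 kb. The gained peaks were thus more crowded than either of these kinds. The nearest neighbour was another gained peak in 36.2% of cases, against 24.4% of the list, and a lower-scoring gained peak in 42.7%, against 43.7% of the list. It was a peak that overlapped QSC H3K27me3 in 16.0%, although such peaks were 22.6% of the list. When all ASC H3K27me3 peaks with gaps of at most 10 kb were joined into neighbourhoods, 4647 gained peaks, or 49.8% (48.8% to 50.8%), shared a neighbourhood with a peak that overlapped QSC H3K27me3. A further 627, or 6.72%, shared one with a peak gained at H3K4me3 but with none that overlapped young QSC H3K27me3. Neighbourhoods made of gained peaks away from H3K4me3 alone, including those under the score limit, held 2718, or 29.1% (28.2% to 30.1%). The remaining 1337, or 14.3% (13.6% to 15.1%), had no other ASC H3K27me3 peak within 10 kb.

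Many gained peaks stood in runs. With gaps of at most 10 kb between gained peaks, 5699 of them, or 61.1%, fell into 1728 runs of at least 2, and 3630 stood apart. There were 43 runs of 10 or more, holding 571 gained peaks. The length of a run is counted here in gained peaks and not in the bases it spans. Gained peaks in runs were wider and scored higher, with a median width of 1208 bp against 1047.5 bp for those outside runs, and of 1371 bp in runs of 10 or more.

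The longest run, at chr11:32798553-32890933, held 22 gained peaks over 92.4 kb. Their widths ran from 533 to 5884 bp and their scores from 104 to 1673. The gained peaks covered 43.9% of the run and were 22 of its 33 ASC H3K27me3 peaks. In young QSCs no H3K27me3 peak was listed inside the run or within 82.1 kb of it, and old QSCs had none inside it either. A single H3K4me3 peak was listed there in each young cell state, and no H3K36me3 peak in either. The run was therefore empty of H3K27me3 in both lists from quiescent cells.

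The second longest run, at chr2:162937030-163026639, held 19 gained peaks with widths of 794 to 3610 bp. It enclosed 1 young QSC H3K27me3 peak and 2 of old QSCs, and no peak of H3K4me3 or H3K36me3. Another run of 19, at chr14:64058582-64130251, enclosed 3 young QSC and 2 old QSC H3K27me3 peaks, with 2 H3K4me3 peaks in ASCs and none in QSCs. Each of these 2 runs had 1 gained peak that overlapped H3K27me3 of old QSCs, so unlike the longest run they were not free of the mark in either list from quiescent cells.

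Some gained peaks scored above the median of 518 of the ASC peaks that overlapped QSC H3K27me3. A score of at least 1000 was reached by 76, on 18 chromosomes, with a median width of 4073 bp. A score of 3100 was also the highest in the young QSC H3K36me3 and old QSC H3K27me3 lists. It may be a limit of the scale, so the order of scores of 3100 and above is uncertain. The highest listed score, 3227, belonged to chr18:61162768-61169350, which was 6583 bp wide, 1336 bp from the nearest young QSC H3K27me3 peak and 3.83 kb from the nearest ASC H3K4me3 peak. The next by listed score were chr4:136483617-136490843 and chr7:151594757-151598534, both at 3100, chr2:19371704-19377246 at 2406 and chr7:138200415-138209975 at 2244. Of these, the first on chromosome 7 was 142 kb from the nearest QSC peak, whereas the other 3 lay between 754 bp and 4.93 kb from one. None of the 5 overlapped H3K36me3. The first 4 overlapped an old QSC H3K27me3 peak, which covered 12.0%, 14.5%, 63.7% and 19.7% of their widths, and the fifth overlapped none. The old peaks at these 4 were 790 to 2406 bp wide, each narrower than the gained peak that it overlapped.

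The widest gained peak was chr3:107237847-107247503, at 9657 bp and a score of 2206. It was followed by the peak on chromosome 7 just named, at 9561 bp. The others were chr4:154154557-154163319 at 8763 bp, chr11:118573852-118581653 at 7802 bp and chr5:37283689-37291043 at 7355 bp. Their next H3K27me3 neighbours in ASCs were between 9 and 557 bp away, and none overlapped H3K36me3. Width and score did not go together in every case, since the peak of 8763 bp had a score of 423.

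Few of the gained peaks overlapped H3K36me3. In young QSCs 369 of them, or 3.96% (3.58% to 4.37%), overlapped an H3K36me3 peak. The share of all ASC H3K27me3 peaks, including those that the rule left out, was 5.87%. In ASCs 97 of the gained peaks did so, or 1.04% (0.853% to 1.27%), beside 2.13% of all ASC H3K27me3 peaks. The share was thus lower in the cell state with the larger H3K36me3 list, which held 42880 peaks covering 70.0 Mb in ASCs and 20399 peaks covering 29.1 Mb in QSCs. Only 45 gained peaks overlapped H3K36me3 in both states, 324 in QSCs alone and 52 in ASCs alone, and 8908, or 95.5%, in neither. By length, QSC H3K36me3 covered 2.63% and ASC H3K36me3 0.735% of the gained peaks. The gained peaks with scores under 100 had shares of 3.49% (3.22% to 3.77%) in QSCs and 1.57% (1.39% to 1.77%) in ASCs, so a low share was not particular to the stronger ones. The peaks gained at H3K4me3 had higher shares, of 19.8% (18.2% to 21.4%) in QSCs and 7.09% (6.12% to 8.21%) in ASCs. Those that overlapped QSC H3K27me3 stood at 6.70% (6.13% to 7.31%) and 1.65% (1.38% to 1.98%). The H3K36me3 peaks were also distant, with medians of 64.9 kb in QSCs and 90.9 kb in ASCs. Without the weak H3K36me3 peaks, with scores under 100, the shares were 1.28% in QSCs and 0.686% in ASCs, so the value for QSCs rested largely on weak peaks. Weak peaks were also most of the QSC list, where 39.29% of all peaks and 32.05% of those at gained peaks scored at least 100. In ASCs these values were 54.02% and 65.26%.

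The QSC H3K36me3 peaks at these places were less often listed in ASCs than their whole list was. Of the 365 that overlapped a gained peak, 46, or 12.6% (9.58% to 16.4%), overlapped an H3K36me3 peak in ASCs, against 59.2% (58.5% to 59.9%) of all QSC H3K36me3 peaks. The 365 were picked by their overlap with ASC H3K27me3, where ASC H3K36me3 was rare (2.13% of all such peaks). The lower share can therefore follow from the choice. QSC H3K36me3 peaks on other ASC H3K27me3 peaks were not examined for it. The 365 had a median score of 80.0 and a median width of 1011 bp, beside 83.8 and 1103 bp in the whole list, so they did not stand out by strength. The 369 gained peaks themselves lay far from quiescent H3K27me3, at a median of 220 kb.

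**Figure D2:**
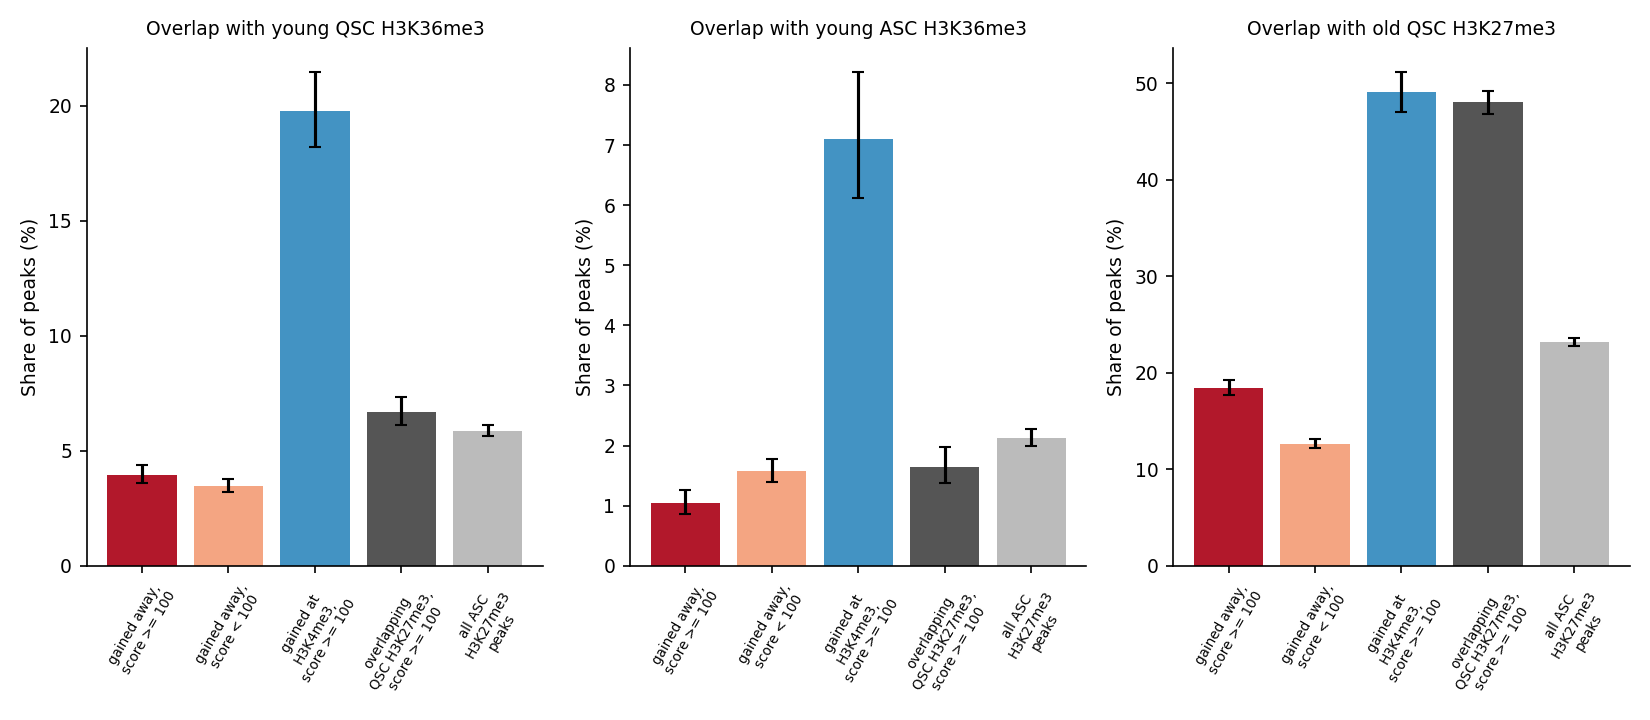
Share of peaks (%) that overlapped an H3K36me3 peak of young QSCs (left) or young ASCs (middle) or an H3K27me3 peak of old QSCs (right), for 4 kinds of young ASC H3K27me3 peak and for the whole list; bars start at 0 and error bars are Wilson 95% intervals. The gained peaks away from H3K4me3 (red) stood at 3.96%, 1.04% and 18.4%, below the whole list at 5.87%, 2.13% and 23.2%. The whole list also holds the peaks that the rule left out, so a share below it can follow from the rule. With scores of at least 100, those gained at H3K4me3 stood at 19.8%, 7.09% and 49.1%, and those overlapping QSC H3K27me3 at 6.70%, 1.65% and 48.0%.

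In QSCs from old mice, 1720 of the gained peaks overlapped an H3K27me3 peak, a share of 18.4% (17.7% to 19.2%). Of all ASC H3K27me3 peaks 23.2% did so. That list also holds the peaks that the rule left out, so a share below it can follow from the rule. Among ASC peaks with a score of at least 100 the share was 48.0% (46.9% to 49.2%) for those that overlapped young QSC H3K27me3 and 49.1% (47.1% to 51.1%) for those gained at H3K4me3. For the gained peaks with scores under 100 it was 12.6% (12.1% to 13.1%). The share was higher in stronger peaks, from 15.8% (14.8% to 16.9%) at scores of 100 to 150 to 24.2% (21.5% to 27.2%) at 300 to 500 and 34.2% (24.5% to 45.4%) at 1000 or more. By width the order was different, with 24.3% (22.9% to 25.8%) of the gained peaks up to 1 kb wide, 15.5% (14.5% to 16.5%) of those of 1 to 2 kb and 12.0% (9.92% to 14.5%) of those of 2 to 3 kb in old QSCs. The share thus went up with the score and down with the width up to 3 kb, although score and width were correlated. The old peaks concerned numbered 1715, or 9.72% (9.30% to 10.2%) of the old list. They were narrower, with a median width of 883 bp against 1013 bp for the gained peaks they overlapped, and they covered a median of 85.4% of the gained peak. Their median score of 98.5 was near the 89.6 of the whole old list. With old peaks under a score of 100 left out, the share was 9.06%, so it rested in large part on weak old peaks.

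Gained peaks that stood apart overlapped H3K27me3 of old QSCs more often than those in runs. Of the 3630 outside runs, 1057 overlapped old QSC H3K27me3, a share of 29.1% (27.7% to 30.6%). The 3630 include the 1337 with no other ASC H3K27me3 peak of any kind within 10 kb, which stood at 50.6%. Gained peaks in the other kinds of neighbourhood, in a run or not, stood at 12.4%, 17.5% and 13.2%. In runs of 2 to 4 the share was 14.0% (12.9% to 15.2%), in runs of 5 to 9 it was 8.47% (7.16% to 10.0%), and in runs of 10 or more 26 of 571 did so, or 4.55% (3.13% to 6.59%). The order was the same at scores of 100 to 200, with 26.6% outside runs and 1.60% (0.686% to 3.70%) in runs of 10 or more, and at scores of 200 or more, with 38.6% and 8.11% (5.36% to 12.1%). It was also the same among peaks up to 1 kb wide, at 35.2% and 2.99%, and among wider ones, at 24.2% and 5.03%. The share in old QSCs thus went down with the length of the run although it went up with the score.

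Overlap with QSC H3K36me3 followed the same order. It was 8.32% (7.47% to 9.26%) outside runs, 1.56% (1.21% to 2.02%) in runs of 2 to 4 and 0.610% (0.321% to 1.16%) in runs of 5 to 9. Among the 1337 with no other ASC H3K27me3 peak within 10 kb, all of them outside runs, it was 17.9%. In runs of 10 or more, 1 of the 571 gained peaks overlapped QSC H3K36me3, and none overlapped ASC H3K36me3, which allows a share of up to 0.668% there (upper bound of the Wilson interval). Proximity to QSC H3K27me3 did not follow this order, with 31.5% (30.0% to 33.0%) within 10 kb outside runs, 44.1% (42.5% to 45.7%) in runs of 2 to 4 and 35.6% (31.7% to 39.6%) in runs of 10 or more.

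**Figure D3:**
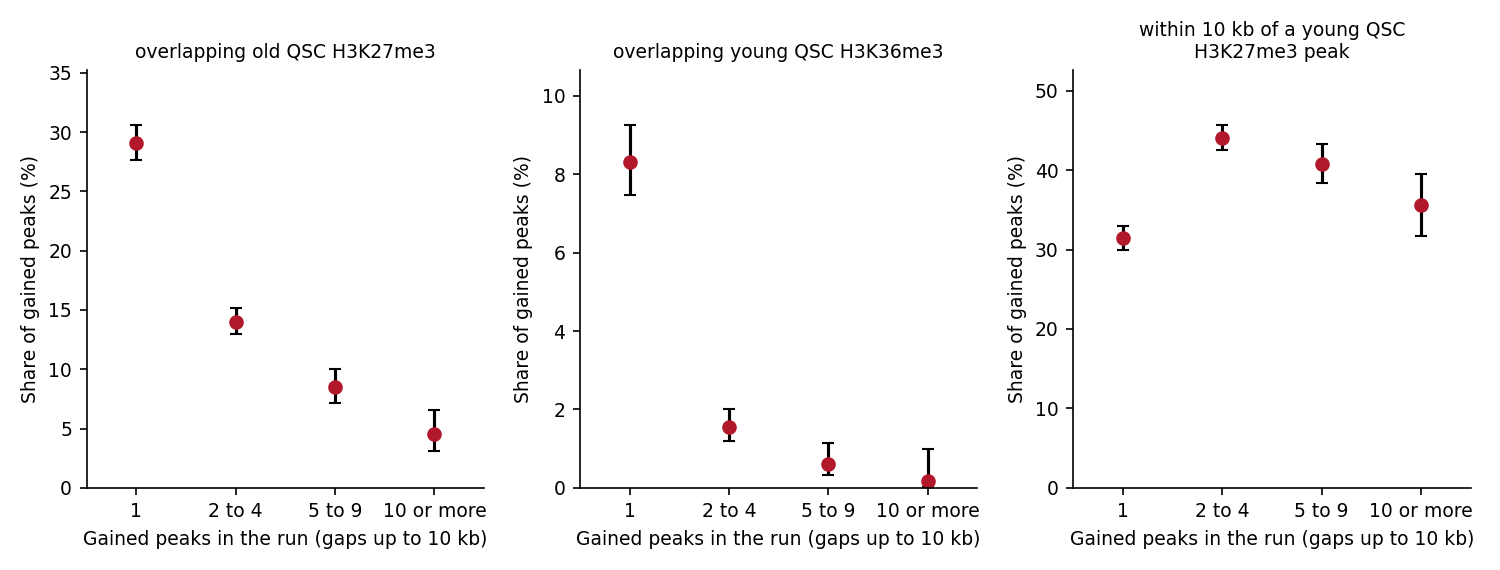
Share of gained peaks (%) that overlapped old QSC H3K27me3 (left), overlapped young QSC H3K36me3 (middle) or lay within 10 kb of a young QSC H3K27me3 peak (right), by the number of gained peaks in the run they stood in; points are shares and bars Wilson 95% intervals, and each y axis starts at 0. The share in old QSCs goes from 29.1% outside runs to 4.55% in runs of 10 or more, and that on H3K36me3 from 8.32% to 0.175%, whereas the right panel shows no such order. The points outside runs include the 1337 gained peaks with no other ASC H3K27me3 peak within 10 kb, at 50.6% and 17.9% in the left and middle panels.

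The same places tended to be listed for both. Of the 369 gained peaks on QSC H3K36me3, 277 also overlapped old QSC H3K27me3, a share of 75.1% (70.4% to 79.2%), whereas the share was 16.1% (15.4% to 16.9%) among the other 8960. With the 369 left out, the share in old QSCs still went from 24.5% (23.1% to 26.0%) outside runs to 4.56% (3.13% to 6.60%) in runs of 10 or more. The difference was not limited to the gained peaks. Among the ASC peaks with a score of at least 100 that overlapped young QSC H3K27me3, 87.0% (83.7% to 89.8%) of those on QSC H3K36me3 and 45.2% (44.0% to 46.5%) of the others overlapped old H3K27me3. The 1337 gained peaks with no other ASC H3K27me3 peak within 10 kb had the highest share in old QSCs of the 4 kinds of neighbourhood. Of these, 50.6% (47.9% to 53.2%) overlapped old QSC H3K27me3 and 17.9% (15.91% to 20.02%) QSC H3K36me3, and their median score of 131 was lower than that of the gained peaks that shared a neighbourhood with quiescent H3K27me3, at 161. The part of score and of H3K36me3 overlap in the share of these 1337 was not tested.

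Along the genome the gained peaks were unevenly spread. The density over the autosomes was 3.74 per Mb, with chromosome lengths taken as the largest listed position. It was 7.28 per Mb on chromosome 11, 5.46 on chromosome 2 and 5.25 on chromosomes 4 and 5, and 1.90 on chromosome 16 and 1.39 on chromosome 3. The X chromosome had 95 gained peaks, or 0.570 per Mb, and the Y chromosome none. The whole ASC H3K27me3 list was distributed alike, with 25.7 peaks per Mb on chromosome 11, 7.82 on chromosome 3 and 2.89 on the X chromosome. As a share of each chromosome's ASC H3K27me3 peaks, the gained peaks ranged from 17.7% (15.7% to 19.9%) on chromosome 3 to 28.3% (26.8% to 30.0%) on chromosome 11, and were 19.7% (16.4% to 23.5%) on the X chromosome. The density therefore varied more between chromosomes than the share did. Mice have their centromeres near the start of the coordinates, and when each chromosome was cut into 10 equal stretches, the last stretches together held 17.2% of the gained peaks and the first 3.60%, close to the 16.6% and 4.28% of the whole list.

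In windows of 1 Mb, 1107 of 2649 windows, or 41.8%, held no gained peak, and 193 windows held 50% of all gained peaks. The fullest, at chr8:12000001-13000000, held 72 gained peaks among 182 ASC H3K27me3 peaks, and 32 H3K27me3 peaks of young QSCs. It was followed by chr5:112000001-113000000, with 67 gained peaks and 139 QSC peaks, and by chr11:118000001-119000000, with 58 and 28. In these 3 windows, 3, 8 and 10 of the gained peaks overlapped old QSC H3K27me3. Across the 2649 windows, the number of gained peaks had a Spearman correlation of 0.67 with the number of QSC H3K27me3 peaks, 0.56 with ASC H3K4me3 and 0.50 with ASC H3K36me3. These values are descriptions, since the same windows were counted in every list and windows share base composition and gene content across lists.

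**Figure D4:**
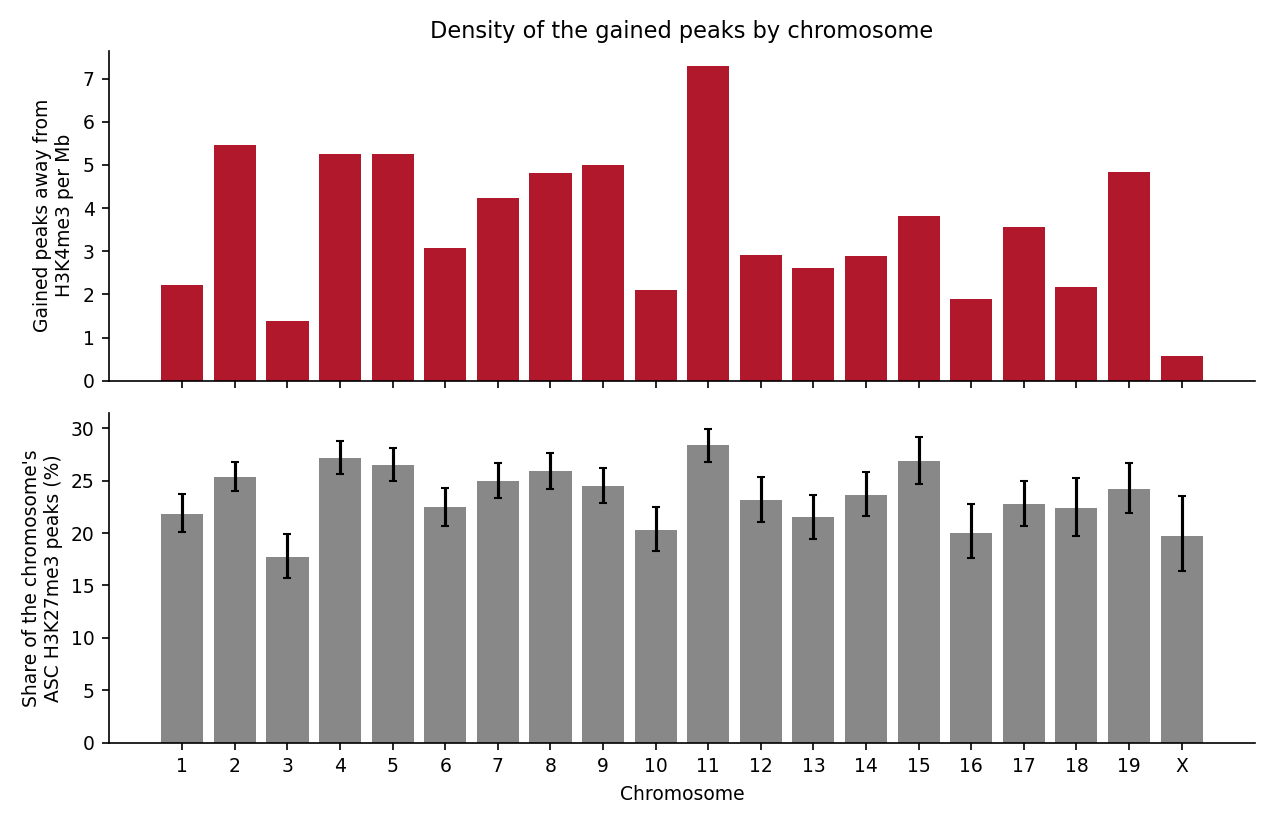
Gained H3K27me3 peaks away from H3K4me3 per Mb of each chromosome (top) and their share (%) of the chromosome's young ASC H3K27me3 peaks (bottom, with Wilson 95% intervals); both axes start at 0, and the Y chromosome, with no gained peak, is not drawn. Density is highest on chromosome 11 at 7.28 per Mb and lowest on the X chromosome at 0.570, while the shares stay between 17.7% and 28.3%.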

How the data were processed

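Peak lists of 8 ChIP-seq libraries were used, and the sample titles gave each library's cell state, age and mark. Per the labels and the submitters' processing notes, reads were aligned with Bowtie to mm9. Per the peak names in the files, the authors deposited for each library the peaks that MACS called against an input, with a score per peak. Versions and duplicate filters are not given in the sources used here. A score depends on depth, so it was compared only within a list. The 3 input libraries were not analysed here.

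Peaks that shared at least 1 base were taken to overlap. Distances are bases between peak edges, and positions are 1-based. Overlaps, distances and order-statistic intervals of medians came from numpy 2.4.6 and pandas 2.3.3 under Python 3.11.15, scipy 1.17.1 gave the Wilson intervals, and matplotlib 3.10.9 drew the plots. Planted overlaps among 2000 simulated peaks tested the code, and for 2 pairs of lists its counts were checked with bedtools 2.31.1. Chromosome lengths are the largest listed positions.

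Members, distances and lists were chosen with earlier results of these data known. Regions named are the 5 highest-scoring and 5 widest gained peaks, the 3 longest runs, the 3 fullest 1 Mb windows and the peaks next to the score limit. The splits by run length, score, width and H3K36me3 overlap were added after values were seen. Alternatives were a score of at least 200 or none, a 50% overlap, a margin of 5 kb, merging of peaks under 1 kb apart, and scores of at least 100 in the other list.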

Additional observations from a re-analysis of the deposited data

Results flagged for a closer look

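The H3K4me3 list of QSCs from old mice was not used to choose the gained peaks, and 489 of them, or 5.24% (Wilson 95% interval 4.81% to 5.71%), overlapped one of its peaks although no young H3K4me3 peak was listed there. The share of all ASC H3K27me3 peaks was 18.4%, and that of the gained peaks with scores under 100 was 4.89% (4.58% to 5.23%). The whole list holds the peaks on young H3K4me3 that the rule left out, so a share below it can follow from the rule. Of the peaks gained at H3K4me3 with scores of at least 100, 80.6% overlapped old QSC H3K4me3. The overlap of the 489 was noticed as signal in a list outside the comparisons above. Of the 489, 414 also overlapped old QSC H3K27me3, a share of 84.7% (81.2% to 87.6%), and 161 overlapped young QSC H3K36me3. Among the 7609 gained peaks without old QSC H3K27me3, 75 overlapped old QSC H3K4me3, or 0.986% (0.787% to 1.23%).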

How the results depend on the processing

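The number of gained peaks was 2807 with a score of at least 200, 26085 with no score limit and 5712 with a margin of 5 kb around the QSC H3K27me3 and young H3K4me3 peaks. It stayed within 1.5 times the reported value with a 50% overlap and with peaks under 1 kb apart merged. In the order score of at least 200, no score limit, margin and merging, the median width was 1697, 787, 1119 and 1392 bp, the share within 10 kb of QSC H3K27me3 was 42.2%, 32.4%, 14.2% and 26.8%, and the share in old QSC H3K27me3 was 23.6%, 14.7%, 22.0% and 24.3%. Merging joins gained peaks to each other and to other ASC H3K27me3 peaks. A joined peak that overlaps a QSC H3K27me3 or young H3K4me3 peak is then left out. The part of each step in these changes was not tested. The margin takes out every peak under 5 kb from QSC H3K27me3, so its share within 10 kb is lower by design. The 50% overlap moved the share within 10 kb to 39.4% and left the other results within their intervals. The share on QSC H3K36me3 was 3.135% with a score of at least 200, 5.15% with the margin and 5.56% with merging. The share on ASC H3K36me3 was 0.819% with a score of at least 200, 1.38% with no score limit and 1.34% with merging. With the other list limited to scores of at least 100, these shares were 1.28% and 0.686%, and that in old QSCs was 9.06%. In the other 8 cases the value stayed within the interval or, for the number, the 1.5-fold range. No paired analysis was possible because each mark and cell state had 1 library. Where no cause is given, the cause was not tested.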
